A study of Mus musculus with 18 samples.

Results

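The genes described here are 10 identity genes of myeloid progenitors: Mpo, Elane, Prtn3, Ctsg, Ms4a3, Cebpe, Cebpa, Spi1, Gfi1 and Csf3r. They were chosen by symbol, and each was read by 1 probe set among the 22180 genes measured, so all 10 are accounted for. Levels were measured on 18 whole-transcript mouse arrays, with 1 array for each condition and time, on a log2 scale made by RMA. Granulocyte-macrophage progenitors (GMPs) gave 1 array. So did an iPSC line derived from GMPs in 2 days of OKSM with AGi (GMP-iPSC), one derived from fibroblasts in 4 days of it (Fibroblast-iPSC) and wild-type embryonic stem cells (ESC). The other 14 arrays, called the culture arrays below, were Thy1-positive cells sorted on day 3 from fibroblasts expressing OKSM, which the labels call refractory, and 6 cultures with OKSM plus AGi and 6 with OKSM alone, each on days 2, 4, 6, 8, 10 and 12, and reprogrammable embryonic fibroblasts without dox (MEF no dox) as the uninduced state. OKSM stands for the reprogramming factors Oct4, Klf4, Sox2 and Myc, and AGi for ascorbic acid with a GSK3 inhibitor. All samples carry the strain label Black6-129X1/SvJ, the OKSM and OKSM+AGi cultures were bulk populations, and how the GMPs were isolated is not stated in the labels. In such mixed cultures fewer cells of a type and less RNA per cell cannot be told apart. No condition was repeated, so a difference between single arrays has no replicate check and is given by its size only.

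GMPs are bone marrow progenitors that give rise to neutrophils and monocytes. Their program is driven by Spi1 (PU.1), the ETS factor of the myeloid lineage, and Cebpa, the bZIP factor needed to form GMPs, with Gfi1, a repressor that favours the granulocyte fate, and Cebpe, which drives later granule formation. Together with MYB and RUNX1 these factors act on the genes of the primary (azurophil) granule, which packs myeloperoxidase (Mpo) and the serine proteases neutrophil elastase (Elane), proteinase 3 (Prtn3) and cathepsin G (Ctsg). Csf3r is the receptor of the granulocyte growth factor G-CSF, and Ms4a3 encodes a tetraspan membrane protein that marks the GMP stage. Cebpa is also used outside blood, by fat and liver cells among others.

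The promoters of the 4 primary granule genes are shown because their proteins are packed together. Their levels shared 1 pattern, described below, which was not particular to them, as Ms4a3, Csf3r, Cebpe and Gfi1 had it too. Elane and Prtn3 are neighbours on chromosome 10. Windows run from 250 bases before to 50 bases from the start of the RefSeq gene on GRCm38.p6, 5′ to 3′ along the gene, and capitals mark GAGGAA, the core of the PU box bound by PU.1.
Mpo, chr11:87793534-87793833, plus strand: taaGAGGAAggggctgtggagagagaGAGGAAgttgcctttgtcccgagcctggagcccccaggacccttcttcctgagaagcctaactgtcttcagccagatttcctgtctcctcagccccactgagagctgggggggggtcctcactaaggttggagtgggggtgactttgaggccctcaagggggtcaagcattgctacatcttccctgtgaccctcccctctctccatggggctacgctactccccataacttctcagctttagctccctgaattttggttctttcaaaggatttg
Elane, chr10:79886062-79886361, plus strand: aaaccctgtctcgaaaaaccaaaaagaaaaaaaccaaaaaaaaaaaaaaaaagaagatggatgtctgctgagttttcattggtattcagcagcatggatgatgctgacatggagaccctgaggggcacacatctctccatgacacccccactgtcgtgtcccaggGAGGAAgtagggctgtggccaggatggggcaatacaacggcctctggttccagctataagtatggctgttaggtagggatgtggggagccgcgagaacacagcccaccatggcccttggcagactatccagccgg
Prtn3, chr10:79879417-79879716, plus strand: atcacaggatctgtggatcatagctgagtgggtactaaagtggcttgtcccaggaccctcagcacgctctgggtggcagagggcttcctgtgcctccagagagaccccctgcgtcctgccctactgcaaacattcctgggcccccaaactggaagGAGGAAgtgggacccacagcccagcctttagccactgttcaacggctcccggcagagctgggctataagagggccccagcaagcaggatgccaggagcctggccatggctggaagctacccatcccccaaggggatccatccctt
Ctsg, chr14:56102525-56102824, minus strand: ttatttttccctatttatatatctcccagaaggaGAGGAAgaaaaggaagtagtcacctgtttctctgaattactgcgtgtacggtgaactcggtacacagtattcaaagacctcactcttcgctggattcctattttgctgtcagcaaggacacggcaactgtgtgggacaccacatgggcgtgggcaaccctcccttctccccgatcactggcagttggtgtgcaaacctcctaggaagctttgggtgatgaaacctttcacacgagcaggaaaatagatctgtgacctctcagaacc

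Windows were found for 8 of the 10 members, Spi1 and Cebpe being the others, and Gfi1 had 2 windows. With both strands searched, GAGGAA was present in 6 of the 8, against 28.3% of all 32851 windows of this length. It began 85 bases before the start of Elane and 95 before that of Prtn3. Mpo held a pair of copies at 247 and 224 bases, Ctsg 1 copy at 216 and Csf3r 1 at 86, while the copy in Ms4a3 lay after the start. The MYB core AACNG began 50 bases before Elane and 55 before Prtn3 as AACGG, but 80.3% of all windows hold a match to AACNG, as did 7 of the 8 members. The C/EBP pattern TTGCNNAA was matched in Ms4a3 and Gfi1 alone of the 8 (10.8% of all windows), and the RUNX core TGTGGT in Ctsg alone (16.8%). In Gfi1 the C/EBP match shares bases with a MYB match, and no other pair of matches overlaps. These matches are letters in a window and were not tested for binding or use.

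In GMPs, all 10 members stood far above every other array. Each was at least 1 log2 above the highest of the other 17 arrays, as were 3.03% of all genes. Each was therefore also at least 1 log2 above MEF no dox, which is among those 17, as were 7.42% of all genes (8.49% were that much lower, and no member). The members' median excess over the highest other array was 5.13 log2, against −0.30 over all genes. Levels are read within a gene only, since 23 background probe sets on these arrays read between 3.28 and 9.72 depending on their base composition. The members' readings outside GMPs lie inside that range, and whether they are above background was not tested. Where they are not, a difference from GMPs is a lower bound, and the sizes of the differences do not order the genes.

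Among the primary granule genes, Elane read 13.60 in GMPs. On the other arrays it read 6.45 in GMP-iPSC, 6.46 in Fibroblast-iPSC, 6.48 in ESC and 6.51 in Thy1-positive cells. OKSM+AGi cultures read 6.15, 6.32 and 6.41 (lowest, median, highest), OKSM cultures 6.11, 6.47 and 6.73, and MEF no dox 6.69. The GMP array was thus alone at the high end, and the 17 others overlapped within 0.62 log2. Elane was 6.92 log2 higher in GMPs than in MEF no dox.

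Ctsg read 12.17 in GMPs, against 4.83 in GMP-iPSC, 4.93 in Fibroblast-iPSC, 4.97 in ESC and 5.12 in Thy1-positive cells. OKSM+AGi cultures lay between 4.88 and 5.03 with a median of 4.97, OKSM cultures between 4.72 and 5.21 with a median of 5.04, and MEF no dox was the highest of the 17 at 5.31. The difference between GMPs and MEF no dox was 6.85 log2. Mpo read 12.93 in GMPs and between 5.94 and 6.37 elsewhere, the highest again in MEF no dox, a difference of 6.56. Prtn3 read 12.95 in GMPs and between 7.22 and 7.77 elsewhere, with ESC the highest of the others, and its difference from MEF no dox was 5.33. The 4 genes thus shared 1 pattern, high on a single array and flat on all others. Ms4a3, Csf3r, Cebpe and Gfi1, described next, had it too.

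Ms4a3, the GMP-stage membrane protein, read 12.13 in GMPs, and its 17 other arrays spanned 0.35 log2 (5.26 to 5.60), the narrowest span of the 10 members. Csf3r read 10.23 in GMPs and 5.35 to 5.74 elsewhere. Of the transcription factors, Cebpe read 12.12 in GMPs and 6.42 to 7.04 elsewhere, and Gfi1 10.53 in GMPs and 5.73 to 6.33 elsewhere. These 4 genes were 6.53, 4.58, 5.08 and 4.21 log2 higher in GMPs than in MEF no dox, in that order.

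Spi1 and Cebpa varied most among the arrays other than GMPs. Spi1 read 10.98 in GMPs and 6.94 to 7.76 elsewhere, 3.22 log2 above the highest other array, which was OKSM on day 12. Cebpa read 10.87 in GMPs and 6.11 to 8.35 elsewhere, 2.52 above the highest other, also OKSM on day 12. Its span of 2.24 over the 17 other arrays was the widest of the members. The median span of all genes over those 17 arrays was 0.79, and 8 members lay below it, all but Cebpa and Spi1.

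**Figure D1:**
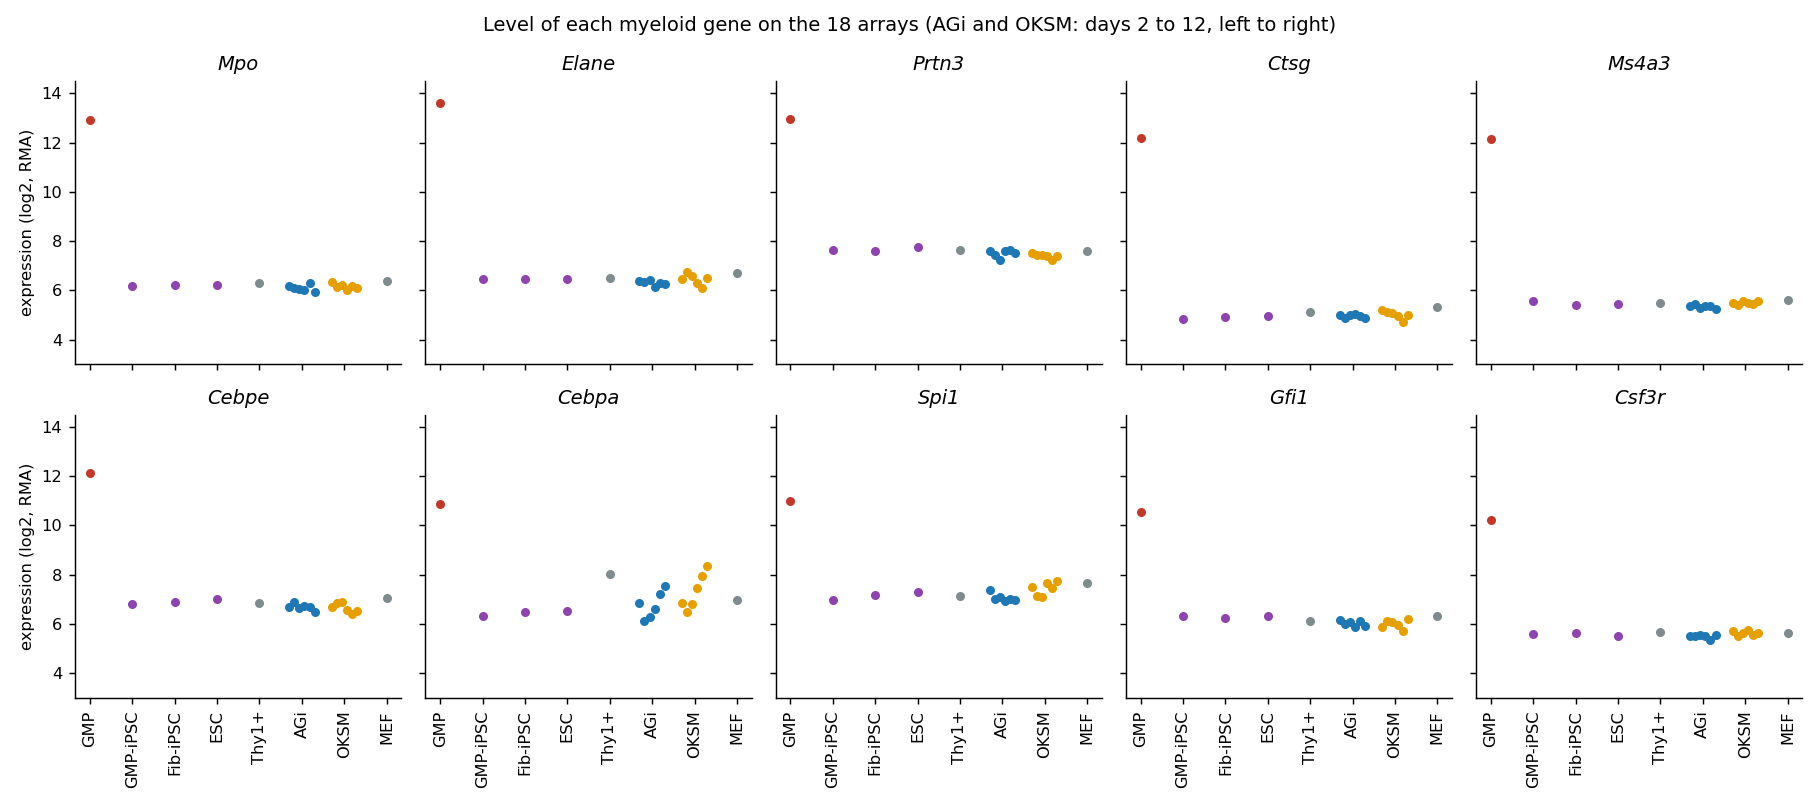
Level of each of the 10 genes (y axis, log2 RMA expression) on the 18 arrays, with 1 point per array; AGi stands for OKSM+AGi cultures, and its points and those of OKSM run from day 2 to day 12. The GMP point lies between 10.23 and 13.60 and above all others for every gene, and Cebpa is the gene whose culture points climb, to 8.35 in OKSM on day 12.

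**Figure D2:**
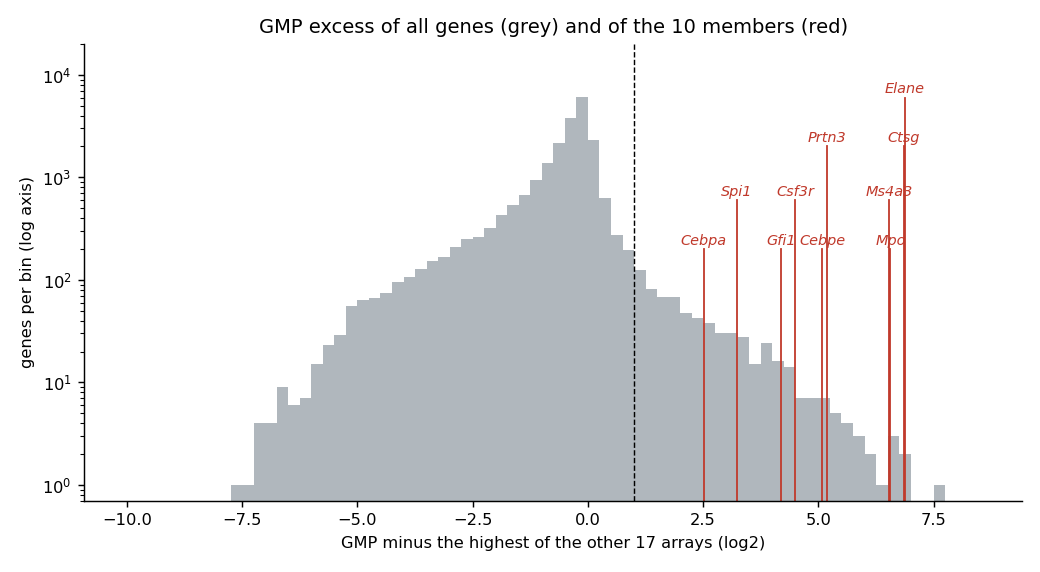
GMP level minus the highest of the other 17 arrays (x axis, log2) for 22180 genes in grey (y axis, number of genes per bin on a log axis), with the members as red lines whose height only separates the labels. The dashed line marks 1 log2, passed by 3.03% of all genes, and the members lie between 2.52 (Cebpa) and 6.87 (Elane).

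The GMP array was also checked against other blood genes. The progenitor markers Kit (11.01 in GMPs, 6.65 in MEF no dox), Fcgr3 (10.25 and 7.27) and Fcgr2b (11.89 and 6.74) were higher in GMPs than in MEF no dox, and so was Cd34 (10.11 and 8.52). Kit and Cd34 were not particular to GMPs here. Kit, which pluripotent cells also use, read 10.65 in GMP-iPSC, 11.09 in Fibroblast-iPSC and 10.53 in ESC. Cd34 read 11.83 in Thy1-positive cells and 11.49 to 12.05 in OKSM cultures, above its GMP level. Of 16 fibroblast markers, 15 were at least 1 log2 lower in GMPs than in MEF no dox.

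Most genes of granulocytes outside the members were also high in GMPs. Of a list of 8 granule protease partners and myeloid surface genes, 7 were at least 1 log2 above the highest other array, led by Nkg7 (12.67 in GMPs, 7.12 in MEF no dox), Igsf6, a surface protein (13.37 and 8.11), Clec12a, an inhibitory receptor of myeloid cells (11.63 and 5.11), and Prss57, a further granule serine protease (11.25 and 6.93). The exception was Ctsc, the peptidase that activates these proteases, which read 11.60 in GMPs and 10.17 in MEF no dox but reached 10.68 in OKSM+AGi on day 2. Of 14 genes of later neutrophil granules, 11 passed the same mark, led by Mmp8 (12.44 in GMPs, 5.81 in MEF no dox), S100a8 (10.09 and 4.05), Chil3 (10.99 and 5.46) and Ngp (10.75 and 5.45). Mmp9, another of them, read 6.73 in GMPs and 8.65 in MEF no dox.

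Markers of other blood lineages were high on the GMP array too. Of 10 markers of mast cells, basophils and eosinophils, 8 were at least 1 log2 above the highest other array, with Cpa3, a mast cell carboxypeptidase, at 12.04 in GMPs and 4.26 in MEF no dox. It was 7.74 log2 above the highest other array. Epx (eosinophil peroxidase) read 11.86 and 6.11, Prg2 11.00 and 5.32, and Ms4a2 9.61 and 4.60. The mean over the 10 markers was 8.94 in GMPs and 5.07 to 5.68 on the other arrays. Of 23 macrophage markers 10 passed that mark, of 7 measured erythroid and megakaryocyte markers 2, of 8 lymphoid markers 1 and of 5 stem cell markers of blood none. Whether the member levels come from the cells that carry these other markers was not tested.

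Beside the members, the 12 genes with the largest difference between GMPs and the highest other array, on which the same limit bears, were Cpa3, Mmp8 (6.55), Atp8b4 (6.33), Rgs18 (6.15), Csf2rb2 (6.04), S100a8 (5.95), Trem3 (5.85), Tfec (5.83), Epx (5.63), BC018473 (5.59), Gapt (5.59) and Gzmb (5.56). Csf2rb2 encodes a beta chain of the mouse IL-3 receptor, and Gzmb a granzyme. Genes next to the members in the genome were less uniform. Measured were 28 protein-coding genes within a pair of places on either side of a member. Of these, 9 were at least 1 log2 higher in GMPs than in MEF no dox, against 7.42% of all genes. Their median difference was 0.34 log2. Of the same 28, 7 were at least 1 log2 above the highest other array, against 3.03% of all genes. Ms4a2, beside Ms4a3, stood out with the levels given above, and Slc7a8, beside Cebpe, was 3.42 higher, Plppr3, beside Prtn3, 3.06 and Mcpt8, beside Ctsg, 2.69. Ms4a6d (2.83 higher) and Oosp1 (2.65 higher) also lie near Ms4a3. Ms4a2 and Mcpt8 are also among the mast cell, basophil and eosinophil markers counted above. Gzmd, near Ctsg, was lower in GMPs (3.76, against 6.10 in MEF no dox).

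In iPSCs made from GMPs, all 10 members were lower than in GMPs by 4.02 to 7.34 log2. At least 1 log2 lower in GMP-iPSC than in GMPs were 7.88% of all genes and at least 1 log2 higher 8.5%, with no member among the second. Ctsg read 4.83 in GMP-iPSC and 12.17 in GMPs, Elane 6.45 and 13.60, and Mpo 6.18 and 12.93. Spi1 read 6.96 and 10.98, and Gfi1 6.33 and 10.53. The member that read highest relative to both ESC and Fibroblast-iPSC was Ms4a3, at 5.55 in GMP-iPSC against 5.39 in Fibroblast-iPSC and 5.44 in ESC.

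Set against ESC, GMP-iPSC differed by −0.34 (Spi1) to 0.12 (Ms4a3), and against Fibroblast-iPSC by −0.23 (Spi1) to 0.17 (Ms4a3). No member reached 1 log2 in either comparison. Of all genes, 0.604% were at least 1 log2 higher and 0.766% lower in GMP-iPSC than in ESC, and 0.302% were higher and 1.28% lower than in Fibroblast-iPSC, so few genes of any kind did. The members' median absolute difference from ESC was 0.12, against 0.13 over all genes, and from Fibroblast-iPSC 0.09, against 0.14. For 9 of the 10 members GMP-iPSC lay inside the range of the other 16 arrays without GMPs, as it did for 82.2% of all genes. The exception was Gfi1, at 6.334 in GMP-iPSC, against 6.326 in ESC and 6.317 in MEF no dox.

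Of the lineage factors, Cebpa read 6.30 in GMP-iPSC, 6.47 in Fibroblast-iPSC and 6.54 in ESC. In the same order Spi1 read 6.96, 7.19 and 7.30, Cebpe 6.81, 6.89 and 7.01, and Gfi1 6.334, 6.223 and 6.326. Cebpa, Spi1 and Cebpe were thus lowest in the line of blood origin and Gfi1 highest, by small differences between single arrays. Mpo, Elane and Ctsg were lowest there too, and Prtn3, Ms4a3 and Csf3r were not. Other blood genes were also low in GMP-iPSC. All 10 pan-haematopoietic genes were at least 1 log2 lower than in GMPs, among them Ptprc (CD45; 5.10 in GMP-iPSC, 10.62 in GMPs) and Cd53 (6.01 and 12.11), and none was at least 1 log2 higher than in ESC. Of the 14 late granule genes, 12 were lower than in GMPs and none higher than in ESC by that margin. As a check on the label, the mean of 15 pluripotency markers was 10.80 in GMP-iPSC, 10.82 in Fibroblast-iPSC and 10.74 in ESC, against 6.49 in GMPs.

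**Figure D3:**
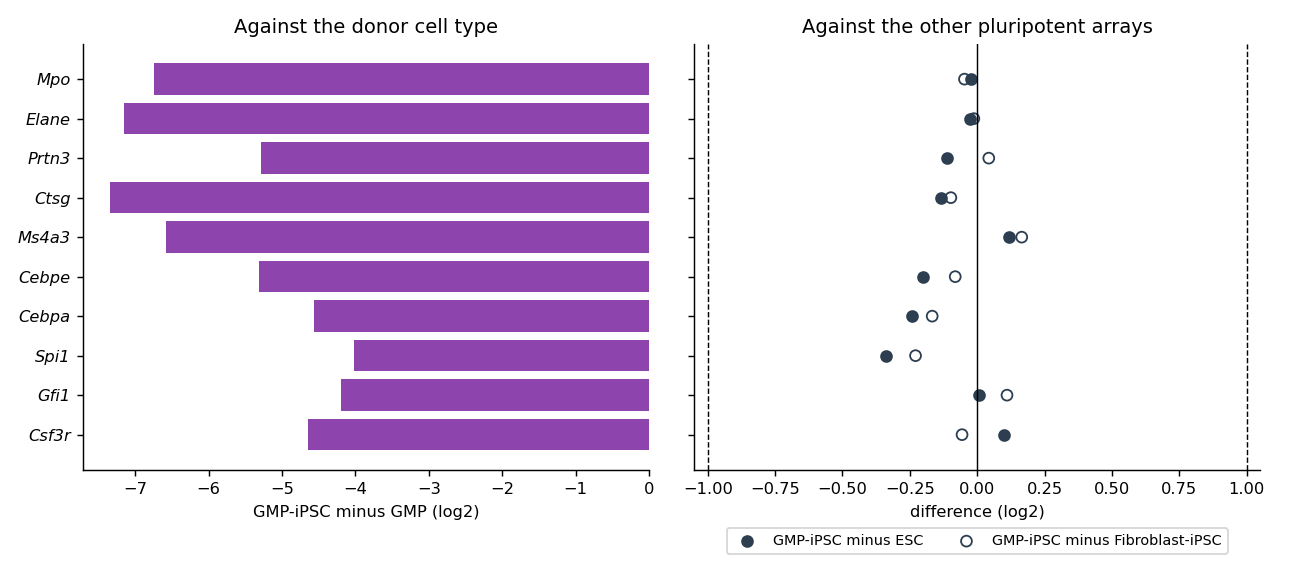
Left, GMP-iPSC minus GMP for each member (x axis, log2); right, GMP-iPSC minus ESC (filled) and minus Fibroblast-iPSC (open), with dashed lines at 1 log2 in either direction. The bars run from −4.02 to −7.34, while the points on the right lie between −0.34 and 0.17.

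The culture arrays differed in fibroblast and pluripotency markers. The mean of 16 fibroblast markers was 9.33 on day 10 and 9.68 on day 12 with AGi, and 10.47 and 10.49 in OKSM cultures. It was 10.31 in MEF no dox and 7.55 in ESC, and its lowest culture value was 7.91, on day 4 with AGi. The mean of 15 pluripotency markers reached 9.30 on day 10 and 10.20 on day 12 with AGi, and 6.75 and 7.81 on those days in OKSM cultures, against 6.31 in MEF no dox and 10.74 in ESC. On the 14 culture arrays, 8 of the 10 members spanned at most 0.62 log2, Spi1 0.82 and Cebpa 2.24. The median span of all genes there was 0.67. Only Cebpa spanned at least 1 log2 over the 12 cultures, as 21.6% of all genes did. The Thy1-positive cells read 8.02 for Cebpa, 1.03 log2 above the 6.99 of MEF no dox, a difference that 2.58% of all genes reached upward and 2.31% downward. The other 9 members differed by −0.53 (Spi1) to 0.02 (Prtn3) between these arrays. In the same sorted cells Pparg, the fat cell factor that works with Cebpa, read 9.43, against 7.32 in MEF no dox, while Fabp4 (6.11 and 6.97) and Adipoq (5.32 and 5.34) did not read higher.

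The effect of AGi was fitted over all 22180 genes with limma and the day as a block, so that each p-value measures the spread between the 6 days, which the labels do not describe as separately grown. The effect is OKSM+AGi minus OKSM. Of the 10 members 1 was lower with AGi and none higher, against 11.9% of all genes lower and 11.8% higher, so the count is no more than that of genes at large. The member was Cebpa. With AGi it read 6.87, 6.11, 6.27, 6.62, 7.20 and 7.52 on days 2 to 12, and with OKSM alone 6.86, 6.49, 6.82, 7.47, 7.93 and 8.35. The arms were alike on day 2, and AGi cultures were lower on the 5 later days, with differences of −0.38 to −0.85, although the ranges of the arms overlap. Markers of other cell states differed between the arms as well: with AGi, 13 of 16 fibroblast markers were lower and none higher (limma, median effect −0.87), and 8 of 15 pluripotency markers were higher and none lower (median 1.52). Cebpa read 6.30 to 6.54 in the 3 pluripotent lines, and the part of these shifts in its values was not tested.

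The difference for Cebpa was −0.56 ± 0.12 log2 (limma SE, n = 6 days, adjusted p = 0.0112, lower on 5 of 6 days). The 18 hybridisation controls, which come from no cell, read 0.06 to 0.26 higher with AGi. Tested against their largest difference instead of 0, Cebpa did not pass (limma, adjusted p = 0.187), nor did it without the day in the model (limma, adjusted p = 0.306). On days 8, 10 and 12 alone the difference was −0.80 ± 0.09 (limma, n = 3 days, adjusted p = 0.0043), and on days 2, 4 and 6 alone −0.31 ± 0.12 (limma, n = 3 days, adjusted p = 0.182). The test of late against early days did not pass (limma, −0.49 ± 0.16, adjusted p = 0.189).

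The slopes of both arms came from 1 model, so each slope SE and p-value draws on the scatter of all 12 cultures. Over days, the Cebpa slope with AGi was 0.10 ± 0.04 log2 per day (limma SE, n = 6 days, adjusted p = 0.131), where 7.24% of all genes rose and 5.51% fell, and no member did either. Without day 2 it was 0.19 (limma, adjusted p = 3.03e-04). In OKSM cultures Cebpa rose by 0.18 ± 0.04 per day (limma SE, n = 6 days, adjusted p = 0.0284), the only member with a slope that passed, while 3% of all genes rose there and 2.3% fell. Without day 4 (adjusted p = 0.100), day 8 (0.0614), day 10 (0.111) or day 12 (0.146) this limma slope did not pass. It passed without day 2 (0.24 per day, limma, adjusted p = 8.27e-04) and without day 6 (0.17 per day, limma, adjusted p = 0.0404). Without day 2 the OKSM slope of Spi1 passed as well (0.08 per day, limma, adjusted p = 0.0452). The slopes of the arms were not shown to differ (limma, −0.08 ± 0.06 per day, adjusted p = 0.591), nor were those of any other member, against 1.06% of all genes with a higher and 0.685% with a lower slope under AGi. By late days Cebpa averaged 7.11 ± 0.45 with AGi and 7.92 ± 0.44 in OKSM cultures (SD, n = 3 days each). Each SD includes the climb over days 8, 10 and 12 and is no spread of replicates.

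Genes whose levels followed Cebpa most closely over the 12 cultures were Itm2b (Pearson r = 0.965), Car11 (0.962) and Tns3 (0.960). Spearman's rho was 0.951, 0.930 and 0.937 for them, and r without the 2 cultures farthest from the Cebpa median 0.932, 0.931 and 0.905. The arrays share a day course and 2 arms, and the genes were picked as the most alike of 22180, so this is a description. Among genes of fat cells, Fabp4 rose by 0.48 ± 0.08 log2 per day with AGi (limma, n = 6 days, adjusted p = 0.0030) and by 0.35 ± 0.08 in OKSM cultures (limma, n = 6 days, adjusted p = 0.0269). Pparg was lower with AGi (−0.56 ± 0.16, limma, n = 6 days, adjusted p = 0.0402). No slope of another of the 7 measured fat cell genes passed in either arm.

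Of the C/EBP family beside Cebpa, Cebpb rose in both arms, by 0.07 ± 0.01 log2 per day with AGi and 0.06 ± 0.01 in OKSM cultures (limma, n = 6 days, adjusted p = 0.0128 and 0.0290). Cebpd fell by 0.08 per day with AGi (limma, SE 0.02, n = 6 days, adjusted p = 0.0397). Cebpe, the granulocyte member, had slopes of −0.02 and −0.03 that did not pass (limma, adjusted p = 0.403 and 0.242).

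**Figure D4:**
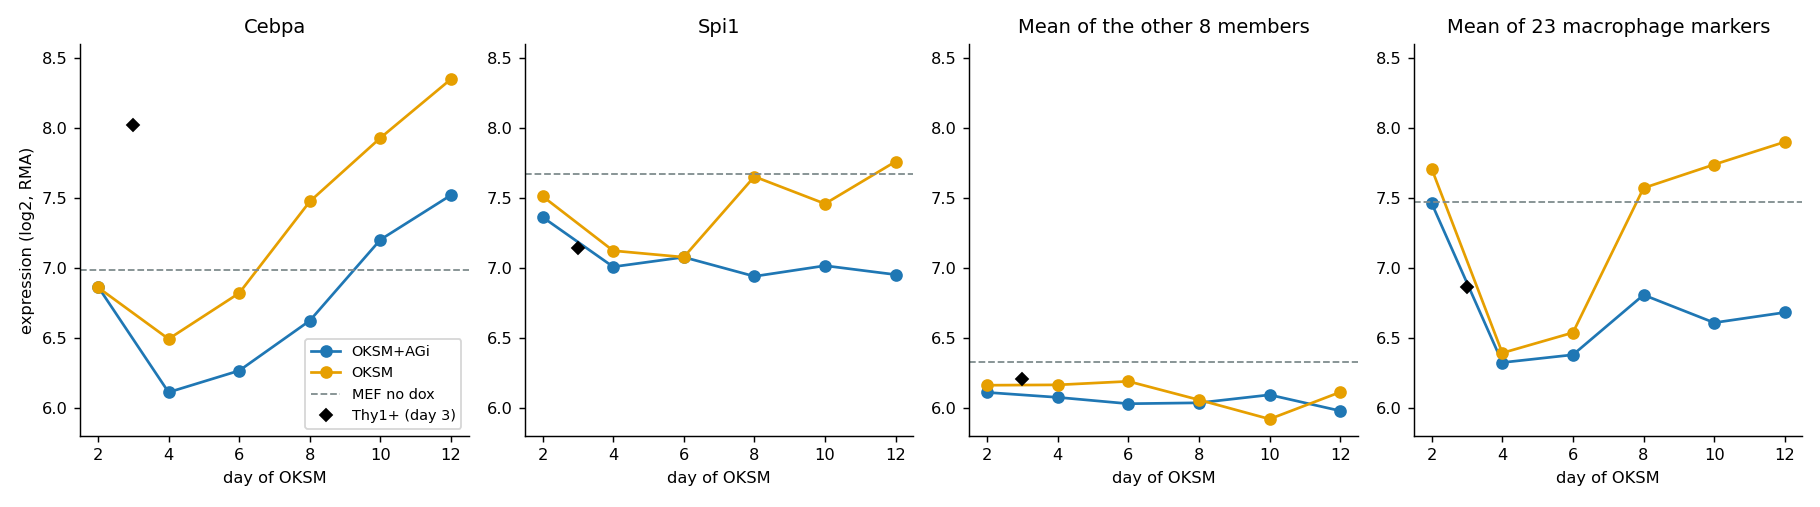
Level over days of OKSM (x axis, days; y axis, log2 RMA expression) of Cebpa, of Spi1, of the mean of the other 8 members and of the mean of 23 macrophage markers, with 1 point per array, the dashed line at MEF no dox and the diamond for Thy1-positive cells. Cebpa climbs from day 4 in both arms, to 7.52 with AGi and 8.35 with OKSM alone, while Spi1 and the macrophage markers part between the arms from day 8 on.

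Spi1 read 7.36, 7.01, 7.08, 6.94, 7.02 and 6.95 on days 2 to 12 with AGi, and 7.51, 7.12, 7.08, 7.65, 7.46 and 7.76 with OKSM alone. The arms differed by −0.15, −0.11 and −0.00 on days 2, 4 and 6, and by −0.71, −0.44 and −0.81 on days 8, 10 and 12, where the arms did not overlap. Over all days the difference was −0.37 ± 0.12 log2 and did not pass (limma SE, n = 6 days, adjusted p = 0.0546). It passed on days 8, 10 and 12 alone (limma, −0.65 ± 0.11, n = 3 days, adjusted p = 0.0129), with a filter on low genes (limma, adjusted p = 0.0406) and without day 6 (limma, adjusted p = 0.0491). The test of late against early days did not pass (limma, −0.57 ± 0.13, adjusted p = 0.0943). MEF no dox, at 7.67, was within the range of the OKSM cultures and above all AGi ones.

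Macrophages also express Spi1, and the mean of their markers parted between the arms on the same days. This was not particular to those markers, nor shared by all blood lists. The mean of 15 haematopoietic transcription factors differed by −0.01, 0.03 and 0.00 on days 2, 4 and 6. On days 8, 10 and 12 it differed by −0.21, −0.42 and −0.61. For 10 pan-haematopoietic genes the differences on days 2 to 12 were −0.29, −0.17, −0.04, −0.44, −0.44 and −0.48. The mean of 10 cytokine receptors was higher with AGi on days 8, 10 and 12, by 0.13, 0.17 and 0.05. The mean over all 23 macrophage markers was 7.46, 6.32, 6.38, 6.81, 6.61 and 6.68 on days 2 to 12 with AGi, against 7.71, 6.39, 6.54, 7.57, 7.74 and 7.90 in OKSM cultures, and 7.47 in MEF no dox. With AGi, 11 of 23 were lower and 1 higher (limma), led by the complement gene C1qb (−1.37 ± 0.34, limma, n = 6 days, adjusted p = 0.0233), Fcer1g (−1.17 ± 0.32, adjusted p = 0.0335), Ms4a7 (−1.11 ± 0.31, adjusted p = 0.0328) and Mpeg1 (−1.01 ± 0.29, adjusted p = 0.0367). Their part in the Spi1 values was not tested. Adgre1, the F4/80 antigen, read 5.60 with AGi on day 12 and 8.23 in OKSM, but did not pass over all days (−0.95 ± 0.38, limma, adjusted p = 0.118). Of all genes, 11.9% were lower with AGi and 11.8% higher. The median effect over the 23 markers was −0.63, against −0.10 over the 10 members and −0.0019 over all genes. On day 12 Elane read 6.26 with AGi and 6.51 in OKSM, and Mpo 5.94 and 6.08. On day 10 both went the other way, with Elane at 6.30 with AGi and 6.11 in OKSM, and Mpo at 6.28 and 6.19. Day 8 gave 6.15 and 6.32 for Elane, and 6.03 and 6.02 for Mpo.

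For the other 8 members the effect of AGi lay between −0.15 (Ms4a3) and 0.10 (Prtn3), with limma SEs of 0.05 to 0.10, and none passed (limma, n = 6 days, smallest adjusted p = 0.130, for Csf3r). Csf3r differed by −0.13 ± 0.05 and was lower with AGi on 5 of 6 days, Elane by −0.14 ± 0.08 on 5 of 6 days and Ms4a3 by −0.15 ± 0.06 on 5 of 6 days. Mpo differed by −0.06 ± 0.06, Ctsg by −0.05 ± 0.07, Cebpe by 0.03 ± 0.07, Gfi1 by 0.03 ± 0.10 and Prtn3 by 0.10 ± 0.08. A p above the threshold does not show that the arms were alike, and the largest control difference, 0.26, exceeds all 8 of these values.

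Upstream and partner genes of the program were not all flat in the cultures. Of all genes, 11.9% were lower and 11.8% higher with AGi. The counts of receptors, partners and later granule genes below are small and are not read as a result about those lists. Of 15 measured haematopoietic transcription factors, 7 were lower with AGi and none higher, beside the fibroblast and pluripotency markers given above, whose part in this count was not tested. The largest differences among the 7 were those of Gata2 (−0.91 ± 0.17, limma, n = 6 days, adjusted p = 0.0078), Fli1 (−0.85 ± 0.09, adjusted p = 0.0011), Bcl11a (−0.85 ± 0.18, adjusted p = 0.0134) and Erg (−0.75 ± 0.21, adjusted p = 0.0365). Myb, a factor of blood progenitors, read 12.61 in GMPs and 6.46 in MEF no dox. In OKSM cultures it rose by 0.36 ± 0.08 log2 per day (limma, n = 6 days, adjusted p = 0.0300), and it reached 10.93 with AGi on day 8 and 10.36 in OKSM on day 10. Runx1 read 11.49 in GMPs and 10.71 in MEF no dox. Of 10 cytokine receptors 2 were higher with AGi, Kit (1.32 ± 0.24, limma, n = 6 days, adjusted p = 0.0074) and Il6ra (0.66 ± 0.14, adjusted p = 0.0115), and 1 lower, Csf1r, the receptor of the macrophage growth factor M-CSF (−0.63 ± 0.12, adjusted p = 0.0078). The surface marker Cd34 was lower with AGi (−1.70 ± 0.33, adjusted p = 0.0087). Of the 8 protease partners and myeloid surface genes 2 were lower with AGi, Serpinb1a, an inhibitor of these proteases (−0.88 ± 0.24, limma, n = 6 days, adjusted p = 0.0305), and Igsf6 (−0.66 ± 0.18, adjusted p = 0.0309). Of 14 later granule genes 1 was lower with AGi, Cybb (−0.67 ± 0.16, limma, n = 6 days, adjusted p = 0.0176), and none higher.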

How the data were processed

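Total RNA was hybridised to Affymetrix whole-transcript mouse arrays. The deposited values are log2 expression per probe set, for which the submitters' processing notes name RMA and Affymetrix Expression Console; what settings and build lie behind them is not given in the sources used here. Array medians lay between 6.32 and 6.46, and precision is limited by having 18 arrays. The table held 41345 probe sets, of which 23521 had 1 gene symbol (from the platform annotation, brought up to date with RefSeq gene IDs), 1814 several, 15820 none and 190 were controls. Each of 22180 genes took the probe set with the highest mean, and each member had 1.

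The members, gene lists and tests were chosen with earlier results of these data known. Named genes were the members, the 12 genes of largest GMP excess, the 3 genes most correlated with each member spanning at least 1 log2 over the 12 cultures, up to 4 genes per list with the largest difference in the comparison described, and genes a marker check turns on. Outside this rule, and after their values were seen, Ctsc, Mmp9, Myb, Runx1, Adgre1, the genomic neighbours, and the fat cell and C/EBP genes were named. Fits used limma 3.58.1 in R 4.3.3 (lmFit, eBayes, Benjamini-Hochberg over all genes, threshold 0.05), with no filter on low values since most members are low in fibroblasts. The AGi effect had the day as a block, as each day holds 1 array per arm; slopes came from arm, day and their product. Fits were tested on simulated data. Alternatives were a filter (the array median on at least 3 of the 12 culture arrays, passed by 5 members), other probe set, normalization, variance and day choices, and leaving out each day. Figures used matplotlib 3.10.9.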

Additional observations from a re-analysis of the deposited data

Results flagged for a closer look

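Of 20 sets of 6 cultures (10 members in each arm), 2 held a culture whose gap to the nearest other exceeded 0.625 of the range; chance gives about 1 in 20. Spi1 read 7.36 in OKSM+AGi on day 2, above the 6.94 to 7.08 of the other days, and macrophage markers were also highest in that arm on day 2 (mean 7.46, others 6.32 to 6.81). Csf3r read 5.35 in OKSM+AGi on day 10, below the 5.51 to 5.57 of the other days.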

How the results depend on the processing

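The counts of members in GMPs and GMP-iPSC (all 10 above every other array, above MEF no dox, and lower in GMP-iPSC than in GMPs) were 10 with arrays quantile normalized again and at 2 log2; the mean of probe sets cannot change them, since each member has 1. For the AGi effect 1 member was lower; it was 0 against the control difference, on days 2, 4 and 6 alone and with no replicate block (day left out of the model), 2 on days 8, 10 and 12 alone and with the filter (5 members tested), and 1 to 2 leaving out each day. Rising slopes numbered 0 with AGi (0 to 1 without each day) and 1 in OKSM cultures (0 to 2). The Cebpa difference ranged from −0.80 to −0.31 and passed in 12 of 15 fits; that of Spi1 ranged from −0.65 to −0.09 and passed in 3. No other member passed in any fit of the AGi effect or slopes. Over all genes, 2615 were higher and 2637 lower with AGi, against 359 and 678 beyond the control difference, 721 and 959 on days 2, 4 and 6, 1737 lower without the day, and 1438 to 2757 higher and 1657 to 2632 lower leaving out each day. Leaving out days, genes rising with AGi numbered 561 to 2096 (1606 in all) and falling 280 to 1446 (1222), rising in OKSM 161 to 967 (665) and falling 88 to 429 (511), and slope differences 44 to 231 higher (235) and 28 to 204 lower (152), with 65 higher for late minus early days (replicate block). The cause of these changes was not tested. Values near background limit what can be said of small differences.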
